A study of Mus musculus with 12 samples.

Results

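Cholesterol is made in the liver from acetyl-CoA through mevalonate, farnesyl diphosphate, squalene and lanosterol, and the genes of this pathway are switched on together by the transcription factor SREBP2. When sterols are plentiful in the endoplasmic reticulum, INSIG proteins hold the SREBP precursor there with its escort SCAP, and the pathway genes are turned down. Insig1 is itself an SREBP target and so serves as part of this feedback. The genes described here are 8 chosen by symbol from the 55903 genes of the deposited table: the enzyme genes Hmgcs1, Idi1, Fdps, Fdft1, Sqle, Lss and Cyp51, and the regulator Insig1. None of the 8 is a cholesterol uptake gene, so uptake genes are described from a separate list. All 8 had a mean of at least 1 TPM over the libraries and entered the tests, which covered 10883 genes.

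Mouse liver RNA was sequenced in 12 libraries, 4 in each of 3 groups. The labels describe the first group as treated with KSL0608-Se, a compound known here only by its code, and its description also names doxo, an abbreviation the labels do not spell out. The second group is titled an aged control but described as doxo, without the compound, and is called aged/doxo because the labels do not settle which it is. The third group is young control liver, with neither agent named. The series title concerns light-activated removal of senescent cells, so the comparisons ask how the genes differ between aged/doxo and young control liver and where treated liver stands against each. The labels used here give no strain, dose, interval or age in numbers. They do not say whether each library is a separate mouse, so every p-value rests on library-to-library spread, which may be technical.

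Values are TPM, abundances per transcript length scaled to a fixed total, so levels of different genes can be compared but the sequencing depth is unknown. A lower value in whole liver can come from fewer cells of a type, from less RNA per cell, or from other genes taking more of the fixed total. These cannot be told apart. The liver label was borne out by hepatocyte markers, 10 of which summed to 64515 to 76539 TPM in treated libraries, 42413 to 77161 TPM in aged/doxo libraries, and 49594 to 71755 TPM in young control libraries. Libraries held 9568 to 11023 genes at 1 TPM or more. Aged/doxo library 2 and young control library 1 stood apart from the rest on the first principal component, which held 54.9% of the variance, and had the fewest genes at 1 TPM, 9741 and 9568. Mitochondrially encoded genes took 27.6% of TPM in aged/doxo library 2, where the remaining 11 libraries had 8.10% to 12.4%. The 50 most abundant genes of each library took 70.5% of TPM in aged/doxo library 2 and 65.6% in young control library 1. Elsewhere they took 50.9% to 57.1%. The part of these shares in the low values of both libraries was not tested.

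For 5 of the 8 genes RefSeq start sites on GRCm38.p6 were at hand, and sequence before them is shown because the genes varied together across libraries (below) and share a known regulator. The motifs searched, on both strands in the 250 bases before the start, were the sterol regulatory element TCACNCCAC, its variant TCACNCGAC, CCAAT (the core bound by NF-Y), GGGCGG and CACGTG. Capitals mark matches of TCACNCCAC and of CCAAT, which reads ATTGG when it lies on the other strand; these motifs do not overlap here. The Hmgcs1 stretch is chr13:119690101-119690350, the Insig1 stretch chr5:28071162-28071362 and the Lss stretch chr10:76531355-76531587, all on the plus strand and ended before the start of the GENCODE M21 gene. For Cyp51 (chr5:4104709-4104738, minus strand) and Idi1 (chr13:8885549-8885578, plus strand) the CCAAT matches lie inside the GENCODE M21 gene, and 30 bases around the farthest match from the start are given.
Hmgcs1: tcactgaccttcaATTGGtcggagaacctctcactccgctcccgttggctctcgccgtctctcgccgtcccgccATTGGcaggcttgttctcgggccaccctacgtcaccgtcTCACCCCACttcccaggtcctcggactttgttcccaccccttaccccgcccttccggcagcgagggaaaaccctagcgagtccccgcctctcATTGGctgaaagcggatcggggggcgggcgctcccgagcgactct
Insig1: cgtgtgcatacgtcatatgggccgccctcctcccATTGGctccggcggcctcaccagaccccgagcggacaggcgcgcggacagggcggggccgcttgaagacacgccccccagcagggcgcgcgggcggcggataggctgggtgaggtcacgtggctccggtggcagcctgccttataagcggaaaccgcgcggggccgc
Lss: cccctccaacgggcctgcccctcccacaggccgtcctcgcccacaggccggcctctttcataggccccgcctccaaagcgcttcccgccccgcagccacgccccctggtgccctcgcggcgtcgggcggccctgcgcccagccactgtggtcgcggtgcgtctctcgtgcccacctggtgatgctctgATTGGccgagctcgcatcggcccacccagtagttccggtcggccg
Cyp51: cgctgtccgccaCCAATctggtcctgagat
Idi1: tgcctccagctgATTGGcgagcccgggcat

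The element TCACNCCAC matched in 1 of these 5 promoters, that of Hmgcs1, from 137 to 129 bases before the start, and in 1.05% of 32851 promoters in the table. TCACNCGAC matched in 0 of the 5 and in 0.247% of all promoters. CCAAT matched in 5 of 5 and in 33.8% of all promoters, with 3 matches in Hmgcs1, 2 in Idi1 and 1 each in Insig1, Lss and Cyp51. GGGCGG, the core bound by SP1, also matched in 5 of 5, against 32.7% of all promoters. CACGTG, an E-box, matched in Insig1 alone of the 5, from 101 to 96 bases before the start, against 6.02% of all promoters. These are matches of letters in a window and were not tested as binding sites. A link between the matches and the way the genes varied together was not tested either.

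The genes lie on 6 chromosomes (GENCODE M21, GRCm38, matched by gene identifier) and are all annotated as protein-coding. Hmgcs1 spans chr13:119690379-119708260 and Idi1 chr13:8885501-8892451. Cyp51 spans chr5:4081145-4104746 and Insig1 chr5:28071363-28078662. Fdps lies at chr3:89093588-89101959, Lss at chr10:76531588-76557138, Fdft1 at chr14:63145150-63179578 and Sqle at chr15:59315077-59331192. No source used here states whether counting used the strand, which matters for Fdft1. Of its 4227 annotated exonic bases, 774 are shared with Ctsb, a lysosomal protease gene on the other strand. Ctsb stood at 247.6 to 294.9 TPM in treated libraries, 107.5 to 268.3 TPM in aged/doxo libraries, and 179.4 to 267.9 TPM in young control libraries, several times the level of Fdft1, so part of the Fdft1 value is uncertain. Fdps shares exons with Gm43738, which is annotated on the same strand and was listed at 2.30 to 6.86 TPM.

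Among the enzymes that build the isoprenoid units, Fdps, which makes farnesyl diphosphate, was the highest of the 8 in every library and supplied 35.1% to 49.3% of their summed TPM. It read 264.7, 190.1, 194.8 and 294.7 TPM in treated libraries 1 to 4, 175.2, 118.3, 251.7 and 251.4 TPM in aged/doxo libraries, and 123.9, 225.9, 218.9 and 230.3 TPM in young control libraries. The groups overlapped, and the lowest values were those of aged/doxo library 2 and young control library 1.

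Hmgcs1 encodes the cytosolic HMG-CoA synthase, an early enzyme of the mevalonate pathway. Its levels were 107.6, 56.3, 74.0 and 83.5 TPM in treated libraries, 60.1, 39.4, 77.6 and 65.7 TPM in aged/doxo libraries and 70.5, 49.1, 59.0 and 81.9 TPM in young control libraries. Treated library 1 was the highest and aged/doxo library 2 the lowest, with the groups overlapping between these ends. Unlike the other 7 genes, Hmgcs1 was not lowest in young control library 1 within that group.

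Idi1, the isopentenyl diphosphate isomerase, stood at 41.6, 25.4, 31.8 and 44.3 TPM in treated libraries, 30.7, 8.05, 34.0 and 28.6 TPM in aged/doxo libraries and 21.7, 23.7, 27.6 and 36.8 TPM in young control libraries. Aged/doxo library 2 lay far below the rest, and the other 11 libraries overlapped between groups.

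The squalene and sterol steps followed. Fdft1, squalene synthase, commits farnesyl diphosphate to sterols, and read 66.1, 48.9, 42.9 and 72.5 TPM in treated libraries, 42.4, 15.9, 67.0 and 57.4 TPM in aged/doxo libraries, and 28.3, 41.1, 41.2 and 56.9 TPM in young control libraries. Sqle, squalene epoxidase, which inserts oxygen into squalene, was at 20.1, 12.6, 13.8 and 23.0 TPM in treated libraries, 15.9, 3.18, 14.4 and 14.9 TPM in aged/doxo libraries, and 12.6, 16.6, 16.5 and 18.6 TPM in young control libraries. In both genes aged/doxo library 2 was the lowest of the 12 and treated library 4 the highest, and the groups overlapped.

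Lss, lanosterol synthase, closes the sterol rings. It was the least abundant of the 8 on average, with 11.7, 10.3, 9.52 and 14.0 TPM in treated libraries, 9.91, 4.79, 10.5 and 7.81 TPM in aged/doxo libraries, and 5.24, 9.52, 8.11 and 9.32 TPM in young control libraries. The lowest treated library equalled the highest young control library, so these groups met at 9.52 TPM. Cyp51 encodes the cytochrome P450 that demethylates lanosterol and read 39.6, 27.4, 26.3 and 41.4 TPM in treated libraries, 30.01, 6.26, 27.8 and 30.8 TPM in aged/doxo libraries, and 20.2, 30.1, 28.0 and 33.1 TPM in young control libraries. Aged/doxo library 2 was again far below the others.

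Insig1, the feedback regulator, stood at 130.6, 120.8, 125.5 and 165.1 TPM in treated libraries, 120.7, 44.0, 170.1 and 79.8 TPM in aged/doxo libraries and 70.3, 102.8, 111.8 and 123.1 TPM in young control libraries. The treated libraries lay close together, whereas the aged/doxo libraries held both the highest and the lowest value of the 12. Of the young control libraries only library 4 reached into the range of the treated libraries.

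**Figure D1:**
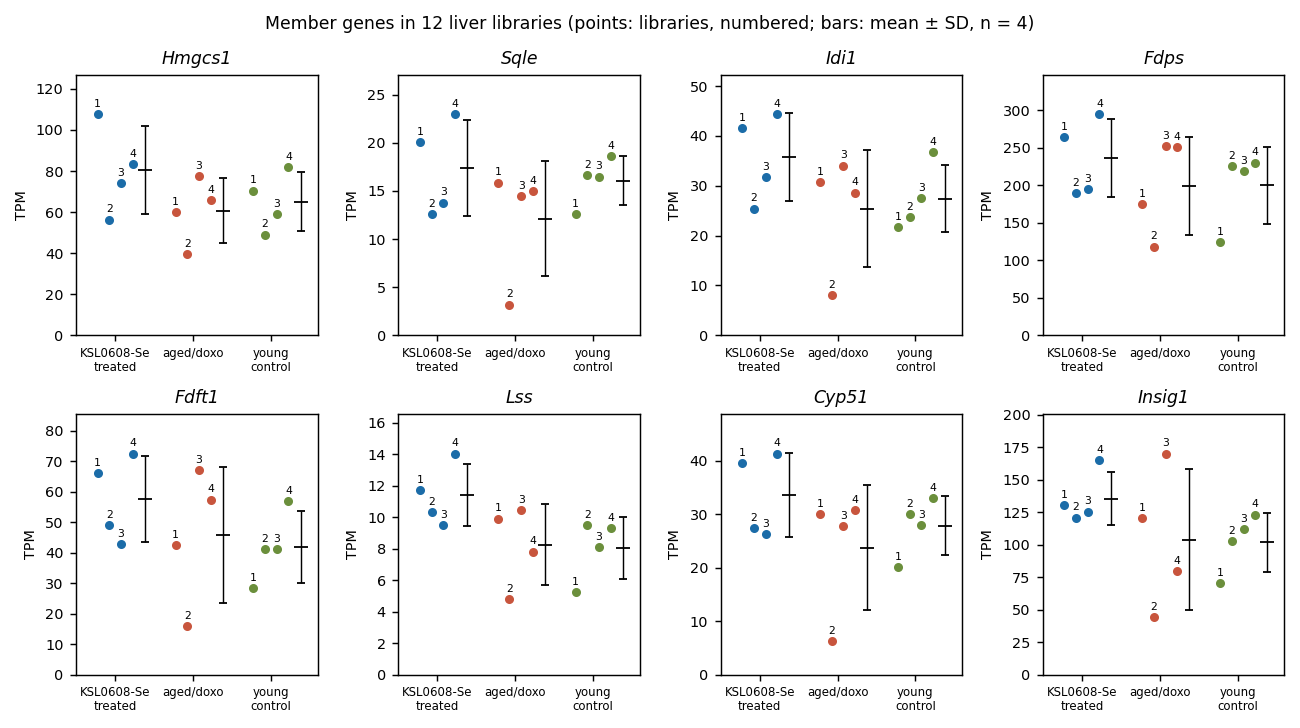
TPM (vertical axis, from 0) of the 8 genes in the 12 libraries, numbered within KSL0608-Se treated, aged/doxo and young control groups, with the mean and SD of 4 libraries beside each group. Aged/doxo library 2 is the lowest point in all 8 panels, from 3.18 TPM for Sqle to 118.3 TPM for Fdps.

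In mean TPM the order Fdps, Insig1, Hmgcs1, Fdft1 held in all 3 groups, followed by Idi1 and Cyp51, then Sqle, then Lss. Fdps exceeded Insig1 in every library, by 1.55 to 2.03 times in treated, 1.45 to 3.15 times in aged/doxo and 1.76 to 2.20 times in young control libraries. Idi1 and Cyp51 could not be ordered: Idi1 was the higher in 3 of 4 treated, 3 of 4 aged/doxo and 2 of 4 young control libraries. Sqle exceeded Lss in 4 treated, 3 aged/doxo and 4 young control libraries, with the exception in aged/doxo library 2. Within a library Fdps lay between percentiles 94.5 and 96.4 of the 10883 genes tested and Insig1 between 90.4 and 94.6. Sqle moved most, between percentile 45.1, in aged/doxo library 2, and percentile 74.5. Its lowest percentile in the other libraries was 63.9.

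The genes differed in how far they varied. Over the 12 libraries the SD of log2 TPM was 0.72 for Sqle, 0.70 for Cyp51, 0.64 for Idi1 and 0.61 for Fdft1. It was 0.38 for Hmgcs1, 0.41 for Fdps and 0.44 for Lss. Sqle and Cyp51 read 3.18 and 6.26 TPM in aged/doxo library 2, where their next lowest libraries read 12.6 and 20.2 TPM. Hmgcs1 read 39.4 TPM there, and 49.1 TPM in its next lowest library. No SD was taken without aged/doxo library 2, so the order of these SDs may rest on it. Much of the variation over the 12 libraries was shared. Set against the geometric mean of the 8 genes in the same library, the SD was 0.16 for Idi1, 0.17 for Fdft1, 0.24 for Cyp51 and 0.29 for Sqle. Hmgcs1 kept an SD of 0.32 on that relative scale, the highest of the 8. Its log2 ratio to that geometric mean was 1.40 in aged/doxo library 2 and 1.28 in young control library 1, against 0.33 to 0.95 in the other 10 libraries. Fdps was likewise relatively high in aged/doxo library 2, with a log2 ratio of 2.98, against 2.10 to 2.62 in the others. On this scale the treated libraries were the most alike for Fdps, with a mean of 2.26 ± 0.025, against 2.52 ± 0.38 in aged/doxo and 2.34 ± 0.20 in young control libraries (SD, n = 4).

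**Figure D2:**
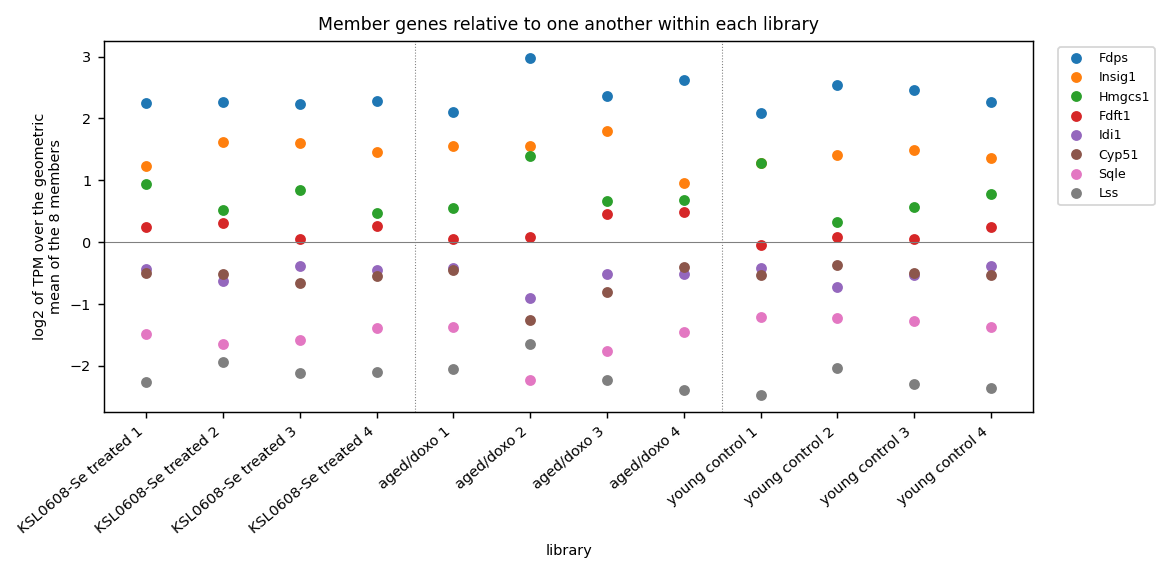
Log2 of each gene's TPM over the geometric mean of the 8 genes in the same library (vertical axis), for the 12 libraries. The vertical order of the genes is nearly the same in every library, and Hmgcs1 departs upward in aged/doxo library 2 (1.40) and young control library 1 (1.28).

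Every pair among the 8 genes was correlated over the 12 libraries in log2(TPM + 1), 28 pairs in all. Pearson's r ran from 0.584 for Hmgcs1 with Lss to 0.985 for Sqle with Cyp51, with a median of 0.836, and Spearman's rho from 0.462 to 0.930, with a median of 0.733. By permutation tests with 100000 resamples, adjusted over the 28 pairs, 28 passed for r (largest adjusted p = 0.0469) and 20 for rho. High r was general in these libraries: all other genes tested had a median r of 0.644 with the mean level of the 8, and of 0.085 without aged/doxo library 2 and young control library 1. Leaving out for each pair the 2 libraries farthest from the median of its first gene gave r between 0.183 and 0.854, with a median of 0.616, so the size of r rests partly on those libraries. Taken as deviations from group means and without aged/doxo library 2 and young control library 1, r ran from 0.182 for Cyp51 with Insig1 to 0.958 for Sqle with Cyp51, with a median of 0.644. Sqle with Cyp51 and Hmgcs1 with Idi1 were the closest pairs on that measure, the second at 0.902. No batch is named in the labels, so within-batch values could not be had.

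Libraries of one group differed widely. In aged/doxo library 2 the 8 genes lay at a median of -1.61 on the log2(TPM + 1) scale from the median of the other 3 libraries of the group, where all genes tested lay at -0.64. Cyp51, at -2.10, and Sqle, at -1.93, were at percentiles 2.81 and 4.22 of all genes in that library, while Hmgcs1, at -0.72, was at percentile 45.1. In young control library 1 the 8 genes lay at -0.54 and all genes at -0.52, and Hmgcs1 was above its group at 0.25.

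Among the treated libraries, libraries 1 and 4 held more of all 8 mRNAs than libraries 2 and 3. The medians of the 8 genes against the other libraries of the group were 0.43, -0.49, -0.41 and 0.51 in libraries 1 to 4, against -0.18, -0.04, 0.06 and 0.11 for all genes tested. In library 1 and in library 4, 8 of 8 genes lay above the median of all genes, and in libraries 2 and 3, 0 of 8. The mitochondrial share was 9.57%, 11.9%, 10.2% and 8.72% in these 4 libraries. The slope of expression on log2 gene length was -0.042, 0.074, 0.078 and 0.117. The part of either measure was not tested. In aged/doxo library 3 the median was 0.37, with Insig1 highest at 1.08, and in young control library 4 it was 0.25, against 0.14 and 0.17 for all genes.

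**Figure D3:**
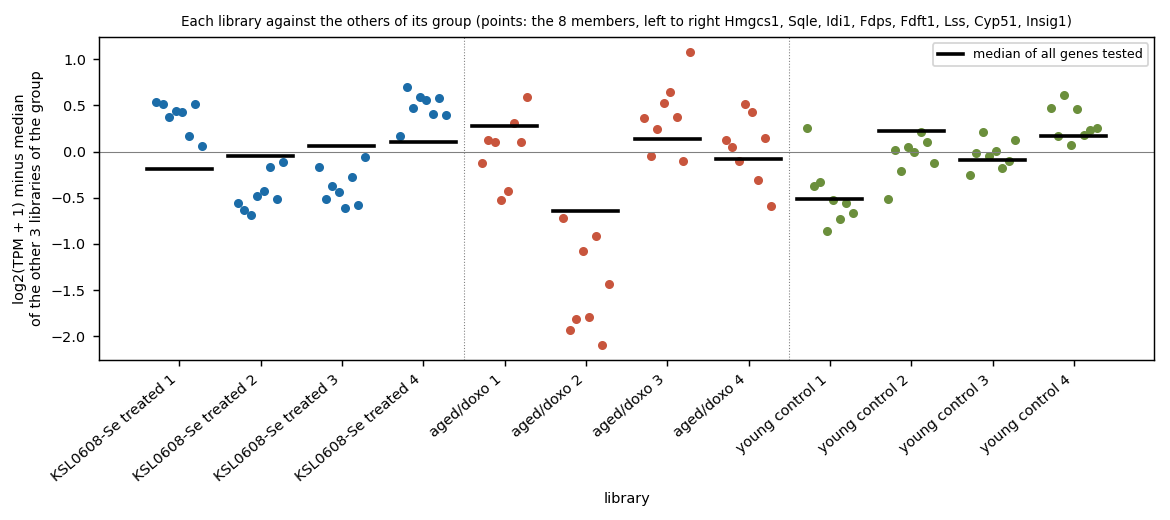
Log2(TPM + 1) of each of the 8 genes (points) minus the median of the other 3 libraries of its group, by library, with the median of all 10883 genes tested as a bar. All 8 points are below the bar in aged/doxo library 2 and above it in treated libraries 1 and 4.

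The first comparison sets aged/doxo against young control liver. The 8 genes together summed to 478.6 ± 174.0 TPM in aged/doxo liver, against 488.0 ± 98.9 TPM in young control liver (SD, n = 4). None of the 8 passed by limma (adjusted p = 1 for each), 0 had an unadjusted p under 0.05 and 0 had groups that did not overlap. Over all genes tested 0.00919% passed, 1.98% had an unadjusted p under 0.05 (1.19% being higher), and 0.689% were higher and 0.312% lower without overlap. Differences in log2(TPM + 1) had a median of -0.11, against -0.08 for all genes, and 7 of 8 were negative, where 35.2% of all genes were positive. Sqle had the most negative difference, -0.56 ± 0.39 (SE), with a 95% interval from -1.41 to 0.29 (means of 12.1 ± 5.97 TPM for aged/doxo and 16.1 ± 2.52 TPM for young control libraries, SD, n = 4), and Cyp51 followed at -0.41 ± 0.41. Fdps, Fdft1 and Lss were at -0.03, -0.01 and 0.01, with intervals reaching 0.53 or more to either side of 0. Without aged/doxo library 2 the median of the 8 was 0.20 and that of all genes 0.10. In that fit Sqle was at -0.08, and Hmgcs1, Idi1, Fdps, Fdft1, Cyp51 and Insig1 turned positive at 0.075, 0.20, 0.20, 0.42, 0.10 and 0.24.

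The second comparison sets KSL0608-Se treated against aged/doxo liver. The sum of the 8 genes was 607.7 ± 121.1 TPM in treated liver, against 478.6 ± 174.0 TPM in aged/doxo liver (SD, n = 4). All 8 differences were positive, from 0.28 for Fdps to 0.67 for Cyp51 with a median of 0.51, but the median of all genes was 0.30 and 81% of all genes were positive. None of the 8 passed (limma adjusted p between 0.427 and 0.533), 0 had an unadjusted p under 0.05, and 0 had groups without overlap. Among all genes, 0.00919% passed, 4.77% had an unadjusted p under 0.05 (3.82% being higher), and 2.77% were higher and 0.358% lower without overlap. Cyp51 averaged 33.6 ± 7.93 TPM in treated liver, against 23.7 ± 11.7 TPM in aged/doxo liver (difference 0.67, SE 0.41, 95% interval -0.22 to 1.57). Lss had the smallest unadjusted p of the 8, at 11.4 ± 1.98 TPM in treated liver, against 8.24 ± 2.57 TPM in aged/doxo liver (difference 0.46, SE 0.25, limma unadjusted p = 0.0878, adjusted p = 0.427). Insig1 averaged 135.5 ± 20.2 TPM in treated liver, against 103.6 ± 54.3 TPM in aged/doxo liver, a difference of 0.54 with an interval from -0.21 to 1.29.

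Leaving out each library in turn gave medians of the 8 from 0.16, without aged/doxo library 2, to 0.75, without aged/doxo library 3. In the fit without aged/doxo library 3 the median of all genes was 0.35, an excess of 0.40. Without aged/doxo library 2 the median of the 8 was 0.16 and that of all genes 0.13, an excess of 0.03 where it was 0.20 with all libraries. Differences then ran from 0.04 for Fdft1 and 0.06 for Fdps to 0.21 for Hmgcs1 and 0.25 for Lss. With libraries weighted by quality, Hmgcs1, Idi1, Fdps, Fdft1 and Insig1 turned negative. With median-of-ratios scaling the median of the 8 was 0.19 and that of all genes 0.03, with Fdps at -0.05.

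The third comparison, treated against young control liver, uses the same young control libraries as the first comparison and the same treated libraries as the second, while the first and second share the aged/doxo libraries. Again 8 of 8 differences were positive, from 0.08 for Sqle to 0.47 for Lss, with a median of 0.33, where 84% of all genes were positive and their median was 0.23. None passed (limma adjusted p between 0.734 and 0.930), 0 had an unadjusted p under 0.05 and 0 had groups without overlap, where 0.0276% of all genes passed, 3.4% had an unadjusted p under 0.05 (2.74% being higher), and 3.66% were higher and 0.358% lower without overlap. Lss averaged 11.4 ± 1.98 TPM in treated and 8.05 ± 1.97 TPM in young control liver (difference 0.47, SE 0.25, 95% interval -0.07 to 1.01). Fdft1 averaged 57.6 ± 14.0 TPM in treated liver, against 41.9 ± 11.7 TPM in young control liver (difference 0.46, SE 0.39). Insig1 averaged 135.5 ± 20.2 TPM in treated liver, against 102.0 ± 22.7 TPM in young control liver (difference 0.43, SE 0.35). Sqle averaged 17.4 ± 4.98 TPM in treated liver, against 16.1 ± 2.52 TPM in young control liver, a difference of 0.08 that was negative with median-of-ratios (-0.20) and quantile (-0.15) scaling. With median-of-ratios scaling Hmgcs1, Fdps and Cyp51 were also below 0, at -0.0016, -0.034 and -0.025, and the median of the 8 was 0.04.

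**Figure D4:**
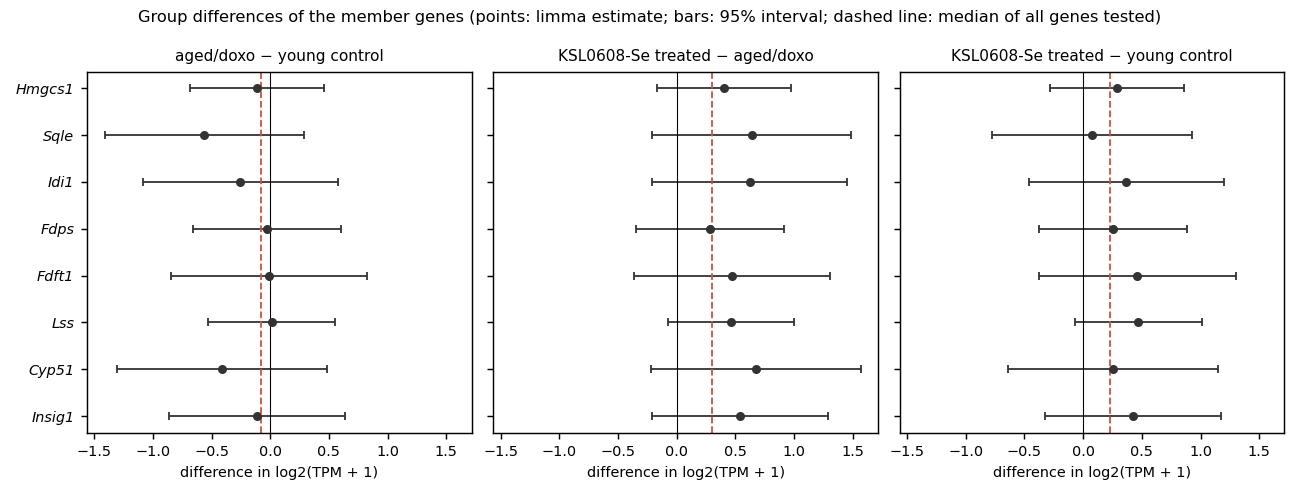
Difference in log2(TPM + 1) of each of the 8 genes (points, with 95% limma intervals) in the 3 comparisons, with the median of all genes tested as a dashed line. Every interval includes 0, and in the comparison of treated with aged/doxo liver the points lie from 0.28 to 0.67, with only Fdps below the all-gene median of 0.30.

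The rest of the pathway was read from a list of 16 further cholesterol synthesis genes, of which 15 entered the tests and Idi2 was listed at 0 in all libraries. None of the 15 passed in any comparison in either direction. Their median difference was -0.22 in aged/doxo against young control liver (14 of 15 negative), 0.60 in treated against aged/doxo liver (15 of 15 positive) and 0.38 in treated against young control liver (15 of 15 positive). Of all genes, 35.2%, 81% and 84% were positive in these comparisons. Acat2, which joins acetyl-CoA units for Hmgcs1, averaged 45.9 ± 4.67 TPM in treated libraries, 28.3 ± 12.6 TPM in aged/doxo libraries and 33.6 ± 12.3 TPM in young control libraries (SD, n = 4). It was the only gene of this list whose treated and aged/doxo libraries did not overlap (difference 0.82, SE 0.38, limma adjusted p = 0.427), where 2.77% of all genes were higher without overlap. Hsd17b7 and Sc5d, which act after lanosterol, did not overlap between treated and young control libraries, where 3.66% of all genes were higher without overlap, with differences of 0.54 and 0.43 that did not pass (limma adjusted p = 0.734 for each).

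Like the 8 genes, the 15 further synthesis genes varied by library. In aged/doxo library 2 their median against the other libraries of the group was -1.44, where all genes were at -0.64, and in young control library 1 it was -0.89 against -0.52. In treated libraries 1 and 4, 12 and 12 of the 15 lay above the median of all genes, and in libraries 2 and 3, 4 and 3.

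**Figure D5:**
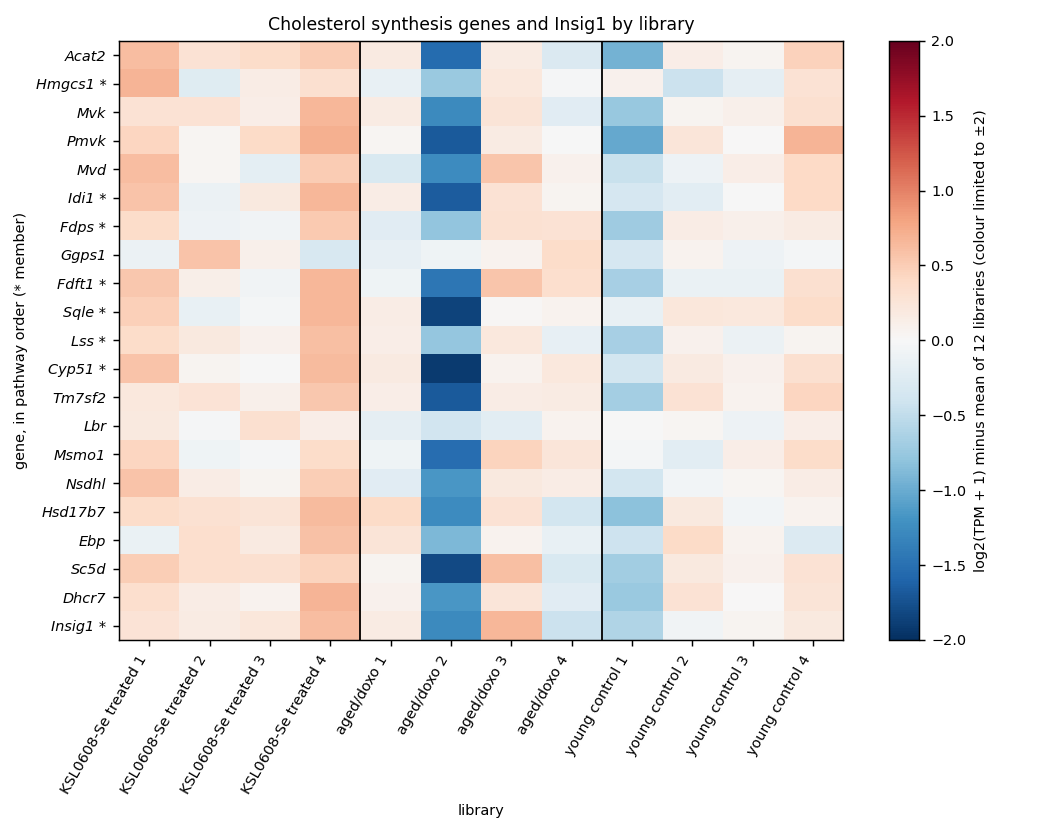
Log2(TPM + 1) minus the mean of the 12 libraries (colour, limited to 2 either side of 0) for cholesterol synthesis genes in pathway order and Insig1, by library; stars mark the 8 genes. Aged/doxo library 2 is the bluest column, and most genes are red in treated library 4.

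The SREBP machinery list held 11 genes, all tested, and none passed. Its median difference between treated and aged/doxo liver was 0.61, and 0.33 without aged/doxo library 2. Insig2, the second INSIG gene, averaged 195.0 ± 37.6 TPM in treated libraries, 100.2 ± 57.8 TPM in aged/doxo libraries, and 148.6 ± 75.4 TPM in young control libraries (SD, n = 4). Its mean exceeded that of Insig1 in treated and young control liver. In aged/doxo liver the means were close, with Insig1 at 103.6 ± 54.3 TPM. Within aged/doxo liver Insig2 was the higher in library 1 (164.9 against 120.7 TPM). It was the lower in aged/doxo libraries 2 (33.24 against 44.01 TPM), 3 (127.15 against 170.09 TPM) and 4 (75.45 against 79.75 TPM). Of the young control libraries it was the lower in library 1 alone (56.4 against 70.3 TPM). The difference of Insig2 between treated and aged/doxo liver was 1.16 (SE 0.49, limma adjusted p = 0.427) and that between aged/doxo and young control liver -0.61 (SE 0.49, limma adjusted p = 1). Srebf2, which encodes SREBP2, ran from 11.5 to 15.3 TPM in treated libraries, 5.14 to 15.3 TPM in aged/doxo libraries, and 6.84 to 14.8 TPM in young control libraries. Srebf1, the lipogenic relative, averaged 92.9 ± 18.0 TPM in treated libraries, 58.4 ± 21.6 TPM in aged/doxo libraries and 64.6 ± 30.6 TPM in young control libraries. Scap had a difference of 0.48 between treated and young control liver that did not pass.

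Of 11 genes of cholesterol uptake and transport into cells, 10 were tested and none passed. The list's median difference was 0.58 in treated against aged/doxo liver, with 2 of 10 genes at an unadjusted p under 0.05, where 4.77% of all genes had one. Without aged/doxo library 2 the median was 0.35, beside 0.13 for all genes. The 2 genes were Mylip, a ubiquitin ligase gene under LXR control, at 1.67 ± 0.52 TPM in treated liver, against 0.72 ± 0.27 TPM in aged/doxo liver, and Stard4, a sterol carrier gene, at 15.4 ± 2.54 TPM in treated liver, against 9.38 ± 4.73 TPM in aged/doxo liver (limma adjusted p = 0.427 for each, n = 4).

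Among 8 tested genes of efflux, esterification and LXR signalling, none passed. Abcg5 and Abcg8, whose products together pump sterols into bile, had differences between treated and young control liver of 0.82 (SE 0.26) and 0.87 (SE 0.38), with unadjusted p of 0.00850 and 0.0390 (limma adjusted p = 0.734 for each), where 3.4% of all genes had an unadjusted p under 0.05. Abcg5 averaged 28.8 ± 6.75 TPM in treated and 16.4 ± 5.97 TPM in young control libraries (SD, n = 4). Of 9 tested fatty acid targets of SREBP1, 6 had an unadjusted p under 0.05 in treated against aged/doxo liver, where 4.77% of all genes did, and none passed. Their median difference was 0.92, and 0.66 without aged/doxo library 2. Scd1, a desaturase gene, averaged 2370 ± 395 TPM in treated liver, against 1111 ± 607 TPM in aged/doxo liver. Of the 11 tested genes of the isoprenoid branch, which uses farnesyl diphosphate for other ends, none passed in any comparison, and the list median between treated and aged/doxo liver was 0.35, and 0.14 without aged/doxo library 2, beside 0.13 for all genes. These medians stand beside 0.30 for all genes, and no test set one list against another. With median-of-ratios scaling the medians between treated and aged/doxo liver were 0.27 for further synthesis, 0.32 for SREBP machinery, 0.35 for uptake, 0.16 for efflux, 0.61 for fatty acid targets and 0.12 for the isoprenoid branch, beside 0.033 for all genes. Between treated and young control liver that scaling left 10 of the 15 further synthesis genes positive. Without aged/doxo library 2 the further synthesis genes had a median of 0.12 in aged/doxo against young control liver, with 13 of 15 positive, and 0.28 in treated against aged/doxo liver.

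Markers of other liver cells also differed between libraries. The summed Kupffer cell and macrophage markers ran from 89.0 to 141.8 TPM in treated libraries, 34.7 to 229.1 TPM in aged/doxo libraries, and 85.4 to 144.2 TPM in young control libraries. The 4 erythroid markers summed to 526.2 to 1042 TPM in treated libraries, 1075 to 1534 TPM in aged/doxo libraries, and 494.8 to 1241 TPM in young control libraries. The 6 endothelial markers summed to 38.3 to 77.1 TPM in treated libraries, 22.6 to 54.4 TPM in aged/doxo libraries, and 21.1 to 59.3 TPM in young control libraries. Their differences were positive for 6 of 6 against aged/doxo and against young control liver, where 81% and 84% of all genes were positive. Their medians were 0.67 and 0.62, beside 0.51 and 0.33 for the 8 genes and 0.30 and 0.23 for all genes. The medians were 0.76 and 0.18 for Kupffer cell, 0.42 and 0.29 for hepatocyte, and -0.74 and 0.08 for erythroid markers. Against aged/doxo liver 3 of 6 endothelial and 3 of 4 erythroid markers had a limma unadjusted p under 0.05, where 4.77% of all genes did. The 6 stellate cell and fibroblast markers had medians of 0.17 and 0.36 in the same comparisons, with sums of 76.5 to 94.7 TPM in treated, 49.99 to 122.4 TPM in aged/doxo and 52.4 to 81.5 TPM in young control libraries. In aged/doxo against young control liver the median was 0.82 for erythroid, -0.49 for Kupffer cell and 0.19 for stellate cell and fibroblast markers. It was -0.16 for hepatocyte and -0.05 for endothelial markers, beside -0.08 for all genes. A limma unadjusted p under 0.05 was held there by 3 of 4 erythroid and 1 of 6 stellate cell and fibroblast markers. Of all genes 1.98% held one. Cholangiocyte, lymphocyte and adipocyte markers summed to at most 52.8, 7.26 and 6.92 TPM in any library. None of the marker genes tested passed in any comparison, and their part in the differences of the 8 genes was not tested.

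The genes most like the 8 were sought by the correlation of each of the other 10875 tested genes with their mean standardised level over the 12 libraries, as a description. The 8 closest were Ndufb10, a respiratory complex I subunit gene (r = 0.975), the sterol synthesis gene Nsdhl (0.969), Pex2 (0.969), Krt8 (0.968), Sri (0.967), Atp5l (0.958), Skp1a (0.952) and Mef2b (0.952). The 15 further synthesis genes had a median r of 0.928, where all genes had 0.644; these points share the low values of many genes in aged/doxo library 2 and young control library 1. Without these 2 libraries the medians were 0.653 and 0.085, and 6 of the 15 were among the 50 closest genes.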

How the data were processed

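Liver RNA of mice, extracted with TRIzol per the labels' protocols, was sequenced in 12 libraries. The authors deposited TPM for 55903 genes, and fastp, HISAT and RSEM are named in the submitters' processing notes without versions. Build, annotation and strand setting were not given in the sources used here. The depth is unknown, so no counting interval was computed. No library repeated another's values. Library columns were matched to samples by description and replicate number.

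The genes and gene lists were chosen with earlier results of these data known. Values were analysed as log2(TPM + 1) for the 10883 genes with a mean of at least 1 TPM, a scale that understates changes in weakly expressed genes. Group means were fitted with limma 3.58.1 (R 4.3.3) over all 12 libraries with an intensity trend, and calls were compared under 25 alternatives. Tests were two-sided with Benjamini-Hochberg adjustment over all genes at 0.05. They were also run on simulated data, with independent normal noise for each gene and the same spread in every library. Those data held no libraries that stand apart, so they cannot show how the tests behave with such libraries. Named genes were the 8 members, from each list those that passed or otherwise the 3 of smallest p per comparison, synthesis and SREBP genes throughout, and the 8 genes of most similar pattern. Ctsb, Gm43738 and the genes of the closing observation were chosen after their values were seen, and some genes of the lists are not reported here by name. Figures used matplotlib 3.10.9 in Python 3.11.15.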

Additional observations from a re-analysis of the deposited data

Results flagged for a closer look

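Among 24 sets of 4 libraries (8 genes in 3 groups), 3 held a library whose gap to its nearest neighbour exceeded Dixon's 95% critical share of the whole range, where chance flags about 1 in 20. Sqle stood at 3.18 TPM and Cyp51 at 6.26 TPM in aged/doxo library 2, each far below the other 3 libraries of the group, and Fdps stood at 123.9 TPM in young control library 1. These are the 2 libraries that stood apart on the first principal component. The mitochondrial share was 27.6% and 12.4% of TPM in them, and its part in these values was not tested.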

How the results depend on the processing

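No member passed under any of the 25 alternatives in any comparison (smallest adjusted p = 0.212, for Lss in treated against young control liver). Deviations of same-numbered libraries correlated between -0.58 and 0.39. Differently numbered libraries were not set beside them, so these values cannot show whether the replicate numbers pair the libraries. With the replicate block, 0, 0 and 1 genes were called in the aged/doxo against young control, treated against aged/doxo and treated against young control comparisons, where 1, 1 and 3 were called without it. In the first comparison all genes called numbered 2 with a pseudocount of 0.1, 0.01, quantile normalization or the length slope as a covariate, 3 with median-of-ratios scaling or a total without abundant and mitochondrial genes, 0 with no filter or the compared groups alone, 74 with libraries weighted by quality, and 0 to 2 without each library. In the second they numbered 0 with a pseudocount of 0.01, no filter, median-of-ratios or quantile scaling, the length slope, or without both libraries that stood apart, 2 with the compared groups alone, 77 with weights and 0 to 1 without each library. In the third they numbered 1 with no filter or the compared groups alone, 5 with a total without abundant genes, 29 with weights and 1 to 5 without each library. The median of all genes in the second comparison was 0.025 with no filter, 0.033 with median-of-ratios or quantile scaling and 0.022 with the length slope.

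Differences that changed sign in the first comparison were Fdps and Fdft1 at 0.013 and 0.025 with median-of-ratios scaling, 0.040 and 0.057 with quantile normalization, 0.0045 and 0.016 with a total without abundant genes, and 0.046 and 0.083 with the length slope, where Insig1 was 0.030. With weights Hmgcs1, Idi1, Fdps, Fdft1 and Insig1 were 0.25, 0.19, 0.15, 0.51 and 0.48. Without both libraries that stood apart Hmgcs1, Idi1, Fdft1 and Insig1 were 0.12, 0.10, 0.25 and 0.070. Without each library the ranges were -0.24 to 0.075 for Hmgcs1, -0.45 to 0.20 for Idi1, -0.24 to 0.20 for Fdps, -0.25 to 0.42 for Fdft1, -0.16 to 0.22 for Lss, -0.61 to 0.10 for Cyp51 and -0.40 to 0.24 for Insig1. In the second comparison Fdps was -0.048 with median-of-ratios scaling, and with weights Hmgcs1, Idi1, Fdps, Fdft1 and Insig1 were -0.046, -0.0012, -0.13, -0.22 and -0.22. In the third, median-of-ratios scaling gave Hmgcs1 -0.0016, Sqle -0.20, Fdps -0.034 and Cyp51 -0.025, and Sqle was -0.15 with quantile normalization, -0.093 with a total without abundant genes, -0.083 with weights, -0.029 without both libraries and -0.15 with the length slope, and -0.065 to 0.21 without each library. The cause of these changes was not tested. The length slope and the fit without both libraries were chosen after seeing the data.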

Other observations

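As deviations from group means over the 10 libraries other than aged/doxo library 2 and young control library 1, the 8 genes closest to the sterol genes were Rdh11 (r = 0.926), Gm16332, Ndufb10, Gm45724, Psen2, Smox, Fam219b and Gnpda2 (r = 0.881). Of the 15 further synthesis genes 5 were among the 50 closest on this measure, and Ndufb10 was in the closest 8 with and without the 2 libraries. This measure was added after the values were seen and carries no test.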
